A study of Xenopus allofraseri with 8 samples.

Results

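The genes *rps4x* (Trinity gene TR43268|c4_g1), *eif5b* (TR21443|c2_g2) and *rps6ka4* (TR40196|c1_g1), a ribosomal protein, an initiation factor and a kinase of the ribosomal S6 kinase family, were followed through all their assembled isoforms. The symbols are the published ones, given to a single isoform of each. A Trinity gene is a set of assembled transcripts whose names differ in the isoform number alone, and every transcript carrying 1 of these 3 names was taken. This gave 19 of the 218541 transcripts, with 5 isoforms of *rps4x*, 12 of *eif5b* and 2 of *rps6ka4*, in 3 of 163981 Trinity genes. The genes had been chosen by the measured difference of 1 isoform each between the groups described next, in edgeR's exact test, so that the values of those 3 isoforms are given as a description only. The assembly does not say whether isoforms are splice forms, alleles or the duplicate gene copies that the polyploid frogs of this subgenus carry, and the sequences and a genome were not used here.

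RNA came from the right knee extensors of 8 adult wild-caught males of *Xenopus allofraseri* from 1 pond. The study sorted them by locomotor performance into endurant (A, D, E and G) and burst-performant ones (B, C, F and H), with n = 4 each, and no frog received a treatment. Each frog gave 1 polyA library of the whole muscle, and its estimated counts summed to between 4715751 and 17359253 in endurant and between 4449192 and 13611485 in burst-performant frogs. Against the read pairs the study lists per frog, the sums of C (9120121) and D (4715751) were a much smaller part than elsewhere. The cause was not tested. The muscle gene *ocm4.1* stood at 4085 to 4666 TPM (transcripts per 1000000, a level per length) in the endurant and 5252 to 9607 TPM in the burst-performant frogs, without overlap. *mybpc2* stood at 366 to 698 and 373 to 819 TPM, *tmod4* at 108 to 146 and 100.2 to 194 TPM, *fsd2* at 0 TPM in the endurant and between 0 and 11.4 TPM in the burst-performant frogs, and the immune cell gene *spib.S* at 9.53 to 15.4 TPM in the endurant and 12.4 to 32.4 TPM in the burst-performant frogs. The values are totals of the Trinity gene that holds each listed transcript, not levels of that transcript alone. The study reports *spib* as higher in endurant frogs, so a total and a listed transcript can differ in direction. These symbols come from a list the study selected on these same frogs, and the part of *ocm4.1* and of other cell types in the results below was not tested. In whole muscle, fewer cells of a type and less RNA per cell cannot be told apart.

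Proteins are made by ribosomes, whose small subunit finds the start codon before the large subunit joins it. The *rps4x* product, ribosomal protein S4, is part of the small subunit in every cell, and genes of this class are among the most active in most tissues. The *eif5b* product is the GTPase that brings both subunits together at the end of initiation. The *rps6ka4* product is a nuclear kinase of the ribosomal S6 kinase family which, in mammals, is switched on by MAP kinases and phosphorylates transcription factors and histones. Of the 103 entries of the study's list of differing transcripts, 3 carried the symbol of a ribosomal protein, a translation factor or a ribosomal S6 kinase, and they are the 3 described here. Transcripts outside that list have no symbol in the sources used here, so that a wider set of translation genes was not analysed.

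The levels of the genes lay far apart. Summed over isoforms, *rps4x* averaged 652 ± 116 TPM in endurant and 772 ± 129 TPM in burst-performant frogs (SD, n = 4), and ranked 153 among all Trinity genes by mean TPM. *eif5b* averaged 21.0 ± 8.13 and 17.9 ± 5.93 TPM and ranked 2934, and *rps6ka4* averaged 0.465 ± 0.360 and 0.546 ± 0.355 TPM and ranked 90224. In reads, *rps4x* rested on 65701 estimated counts over the 8 frogs, *eif5b* on 6547 and *rps6ka4* on 144. A value of *rps6ka4* in 1 frog therefore rested on between 5 and 45 read pairs, while one of *rps4x* rested on between 2742 and 16305.

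**Figure D1:**
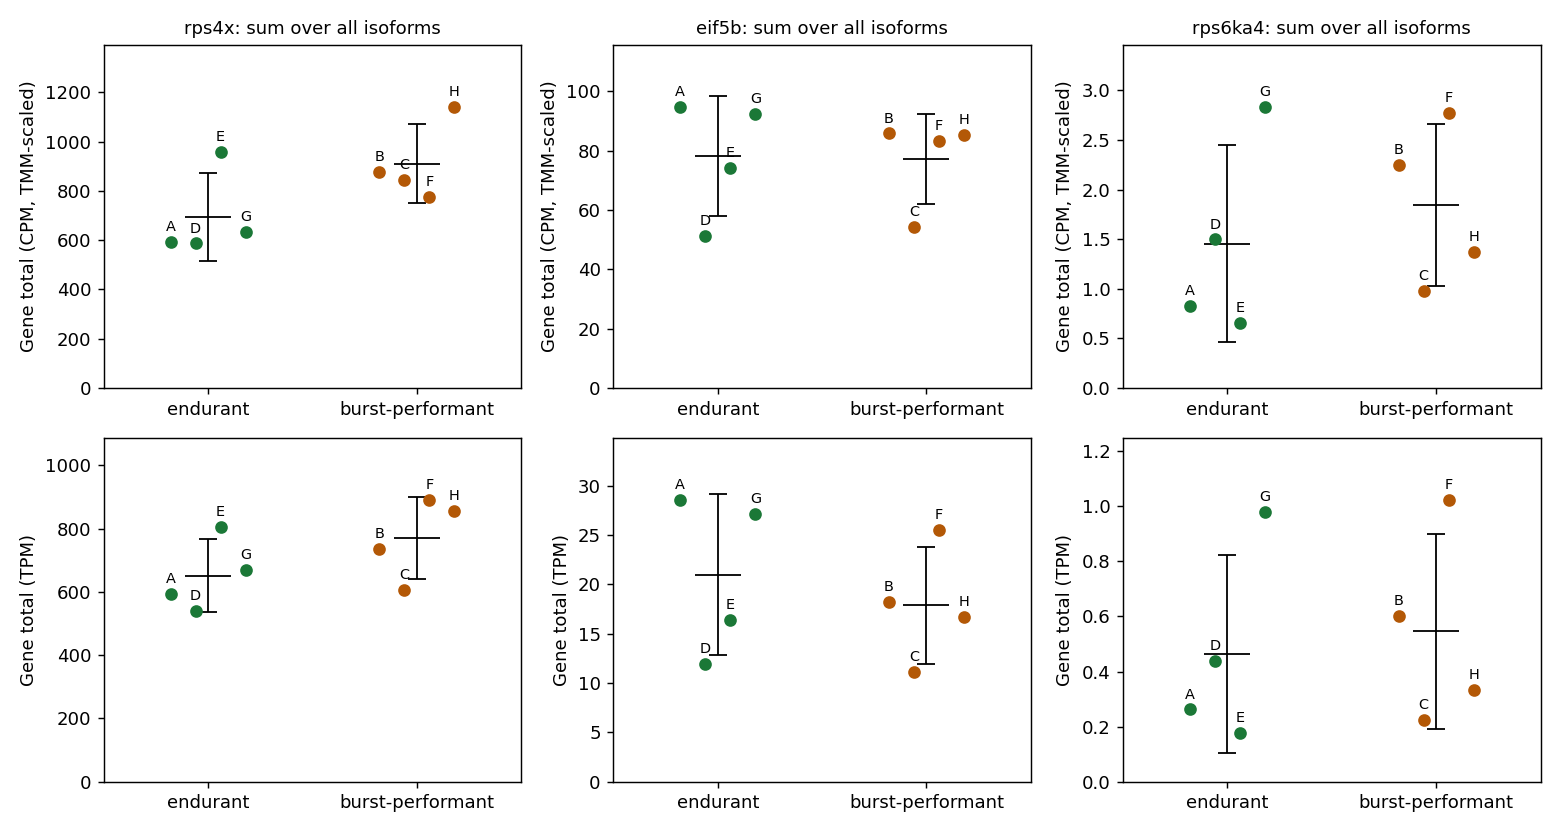
Totals of each gene over all isoforms in every frog (letters), in CPM (upper row, counts per 1000000 scaled by TMM) and in TPM (lower row), with endurant frogs on the left and burst-performant frogs on the right of each panel; bars are the mean and SD of 4 frogs. The groups overlap in all 6 panels, and the frog that stands highest for *rps4x* is H in CPM and F in TPM.

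None of the 3 gene totals passed the test between the groups. When all Trinity genes were fitted (quasi-likelihood test of edgeR, Benjamini-Hochberg adjustment), 0 of the 3 totals and 0 of 35654 totals (0.00%) passed an FDR of 0.05 and a log2 fold change of 2. At an unadjusted p under 0.05 there were 0 of the 3, against 4.40% of all totals. Over all totals, edgeR's exact test called 45, DESeq2's Wald test 31 and limma 2, none of them among these 3.

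The *rps4x* total was 594, 586, 958.5 and 633 CPM in endurant A, D, E and G, against 876, 845, 775 and 1142 CPM in burst-performant B, C, F and H. Endurant A, D and G lay below every burst-performant frog, and frog E lay above all of them but H. The log2 fold change of endurant over burst-performant frogs was -0.40 (standard error 0.27, approximate 95% interval -0.93 to 0.12, adjusted p = 1 by the edgeR quasi-likelihood fit, Benjamini-Hochberg adjusted). The 2-sided exact permutation test on log2(CPM + 1) over the 70 ways to assign 8 frogs gave p = 0.114, where 0.0286 is the smallest value that 4 against 4 frogs allow. On the TMM-scaled CPM, frog E decided this overlap, while in TPM, given below, frog C also lay below endurant G. Without it, the isoforms other than the chosen one differed by -0.57 on the log2(CPM + 1) scale, against -0.40 with all frogs (exact permutation test, p = 0.114). The exact permutation p without frog E, 0.0286, is the smallest that 3 against 4 frogs allow. It follows from leaving out the only endurant frog that overlapped on this scale. With any other frog left out the exact permutation p lay between 0.114 and 0.229. In TPM, the order of the frogs was another one: frogs A, D, E and G stood at 593, 539, 806 and 669 TPM and frogs B, C, F and H at 736, 605, 890.0 and 856 TPM, so that frog C fell among the endurant frogs. The TMM factors that scale CPM ran from 0.787 in frog C to 1.25 in frog F, and their part in the order was not tested.

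Of the *rps4x* counts, 2 isoforms of nearly equal length held almost all. Isoform i5 (TR43268|c4_g1_i5, 900 bases) was the highest in mean TPM, with 286, 281, 394 and 348 TPM in endurant A, D, E and G, against 363, 300.3, 387 and 415 TPM in burst-performant B, C, F and H. Isoform i1 (TR43268|c4_g1_i1, 893 bases) had 289.8, 242, 383 and 299 TPM in the endurant and 346, 280.2, 464 and 407 TPM in the burst-performant frogs. In every frog both were present at a like level, and the groups overlapped in each. Together they made up 95.1 ± 0.392% of the counts of the gene in endurant and 94.2 ± 0.368% in burst-performant frogs (SD, n = 4). The log2 ratio of i5 to i1 was 0.13 ± 0.12 in endurant and -0.002 ± 0.167 in burst-performant frogs (exact permutation test, p = 0.257), a measure set up after the values were seen. The isoforms i2 and i4 each held between 0.914 and 4.51% of the counts in every frog. In these 4 isoforms the fitted log2 fold changes lay between -0.47 and -0.32, with unadjusted p of 0.153 or more by the edgeR quasi-likelihood fit.

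The isoform of *rps4x* on which the gene was chosen is the smallest of its parts. Isoform i3 (TR43268|c4_g1_i3, 846 bases) had 0 counts in endurant A, D, E and G, against 44, 41, 64 and 27 counts in burst-performant B, C, F and H. In TPM the burst-performant frogs were at 3.01, 4.46, 5.01 and 6.12. All 4 burst-performant frogs thus had counts of it and no endurant frog did. By counts pooled over each group it was 57.5-fold higher in burst-performant frogs than a floor of 3 counts over the endurant group. This fold allows for neither counting error in the burst-performant frogs nor the spread between frogs, so it is not a lower bound. Without frog E, the library with the most estimated counts, the fold was 32.2, a check of the pooled folds chosen after the data were seen. The isoform made up 0.552 ± 0.138% of the counts of the gene in burst-performant frogs (SD, n = 4). The 0 of 16305 counts in frog E allows a share of up to 0.0184%, and the 0 of 2742 in frog D up to 0.109%. The exact 95% counting intervals of the burst-performant shares began at 0.274% in frog B, the lowest of them. The limits of all 4 endurant frogs lay under those intervals. Because i3 was chosen by this difference, the comparison is a description and no evidence of a difference. Such intervals and limits cover counting error alone, because no molecular identifiers were used and read pairs need not be independent molecules, and the split of read pairs between similar isoforms is itself an estimate by Kallisto.

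**Figure D2:**
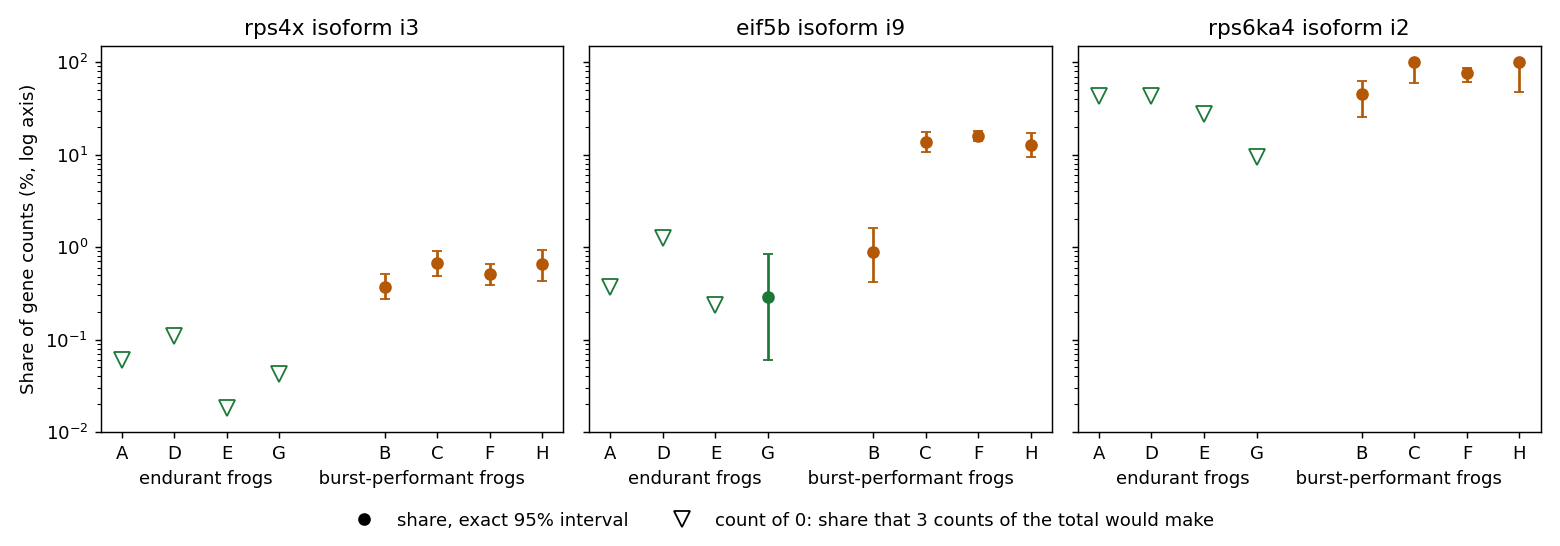
Share of the counts of its gene that the chosen isoform held in each frog (log axis, percent), with endurant frogs on the left; filled points are shares with exact 95% counting intervals, and open triangles mark frogs with 0 counts at the share that 3 counts of the total would make. For *rps4x* the limits (0.0184 to 0.109%) lie under the burst-performant intervals. For *eif5b* the intervals of frogs B and G overlap, and the limit of frog D (1.25%) lies within the interval of frog B (0.42 to 1.60%). For *rps6ka4* the limits run from 9.38 to 42.9%. The isoforms were chosen by their difference between the groups, so the figure is a description only.

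The *eif5b* total was 94.9, 51.3, 74.3 and 92.3 CPM in endurant A, D, E and G, against 85.8, 54.35, 83.3 and 85.4 CPM in burst-performant B, C, F and H. The lowest frogs were D and C, 1 of each group, and the other 6 frogs lay between 74.3 and 94.9 CPM. Frogs D and C are also those whose estimated counts were a much smaller part of their listed read pairs. The part of this in their low totals was not tested. The log2 fold change was 0.02 (standard error 0.27, adjusted p = 1 by the edgeR quasi-likelihood fit, Benjamini-Hochberg adjusted, with exact permutation test, p = 1). Its sign was not stable, and it was -0.12 without frog C, -0.09 without frog A and -0.07 without frog G. Without the chosen isoform, the rest of the gene averaged 78.1 ± 20.1 CPM in endurant frogs, against 69.1 ± 16.1 CPM in burst-performant frogs (SD, n = 4, exact permutation test, p = 0.514).

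Unlike *rps4x*, *eif5b* was spread over many isoforms whose shares changed from frog to frog. Of its 12 isoforms, i5 had no count in any frog, and the number with counts in 1 frog ran from 5 in frog D to 11 in frog G. The highest in mean TPM was i4 (TR21443|c2_g2_i4, 3609 bases), with 379, 119, 380 and 312 counts in endurant A, D, E and G, against 305, 147, 538 and 66 counts in burst-performant B, C, F and H. It held 39.2 ± 10.6% of the counts of the gene in endurant and 31.4 ± 8.91% in burst-performant frogs (SD, n = 4). Isoform i6 (TR21443|c2_g2_i6), of the same length, had counts in all frogs and held 15.8 ± 3.92% and 15.2 ± 1.91%. In CPM, i4 and i6 overlapped between the groups (exact permutation tests, p = 0.314 and p = 0.914).

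Further isoforms were present in some frogs and missing in others of the same group. Isoform i3 (TR21443|c2_g2_i3, 3642 bases) had 67, 52, 385 and 271 counts in endurant A, D, E and G, against 331, 0, 112 and 83 counts in burst-performant B, C, F and H. It led the gene in frogs E, B and H and was at 0 in frog C, whose 390 counts of the gene allow a share of up to 0.769%. Isoform i8 (TR21443|c2_g2_i8, 3032 bases) had 41, 0, 158 and 64 counts in endurant and 183, 29, 95 and 52 counts in burst-performant frogs. Isoform i7 (TR21443|c2_g2_i7, 2421 bases) had 85, 0, 58 and 40 counts in endurant and 0, 70, 83 and 10 counts in burst-performant frogs. In i3, i7 and i8 the groups overlapped (exact permutation tests on log2(CPM + 1), p = 0.514, p = 1 and p = 0.229). The zeros of i3 in frog C and of i7 and i8 in frog D fell in the frogs with few of their listed read pairs counted. Isoform i7 was also at 0 in frog B, which is not 1 of them. Zeros of the less abundant isoforms i1, i2, i10, i11 and i12 fell in frogs C and D and also in A, B, E, F and H. The cause of the zeros was not tested.

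The isoform of *eif5b* on which the gene was chosen was i9 (TR21443|c2_g2_i9, 3627 bases). It had 0, 0, 0 and 3 counts in endurant A, D, E and G, against 10, 54, 214 and 40 counts in burst-performant B, C, F and H. Every burst-performant frog lay above every endurant frog in CPM, but frog B was much closer to the endurant frogs than to the rest of its group. Frogs C, F and H had 7.46, 13.2 and 10.9 CPM, frog B had 0.768 CPM and frog G 0.266 CPM. By pooled counts, 318 against 3, the isoform was 104-fold higher in burst-performant frogs, with an exact 95% counting interval of 35.2 to 506.8. That interval leaves out the spread between frogs, so it is not an interval for a difference between the groups. The fold rested on single frogs: it was 50.2 without frog F, which gave 214 of the 318 counts, and 58.1 without frog E. Without frog G, which gave all 3 endurant counts, it was 78.1 against a floor of 3 counts. As a share of the gene, i9 held 13.7% in frog C (interval 10.6 to 17.7), 15.9% in frog F (13.9 to 17.9), 12.8% in frog H (9.32 to 17.1) and 0.895% in frog B (0.42 to 1.60). In the endurant group it held 0.288% in frog G (0.0595 to 0.8399), an interval that overlaps that of frog B. The 0 of 240 counts in frog D allows a share of up to 1.25%, which does not exclude the share of frog B there.

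Isoforms i3 and i9 differ in length by 15 bases and stood in another balance from one burst-performant frog to the next. Frog B had 331 counts of i3 and 10 of i9, frog C 0 and 54, and frog F 112 and 214. Their sum was 7.89, 11.2, 22.6 and 24.3 CPM in endurant A, D, E and G, against 25.6, 7.46, 20.1 and 33.6 CPM in burst-performant B, C, F and H. The groups overlapped in this sum, which averaged 16.5 ± 8.19 CPM in endurant frogs, against 21.7 ± 11.0 CPM in burst-performant frogs (SD, n = 4, exact permutation test, p = 0.629). The pair was chosen after the values were seen. Isoforms i3, i4, i6 and i9, all of 3609 bases or more, together held 76.7 ± 8.71% of the counts of the gene in endurant and 73.3 ± 5.14% in burst-performant frogs (exact permutation test, p = 0.571).

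**Figure D3:**
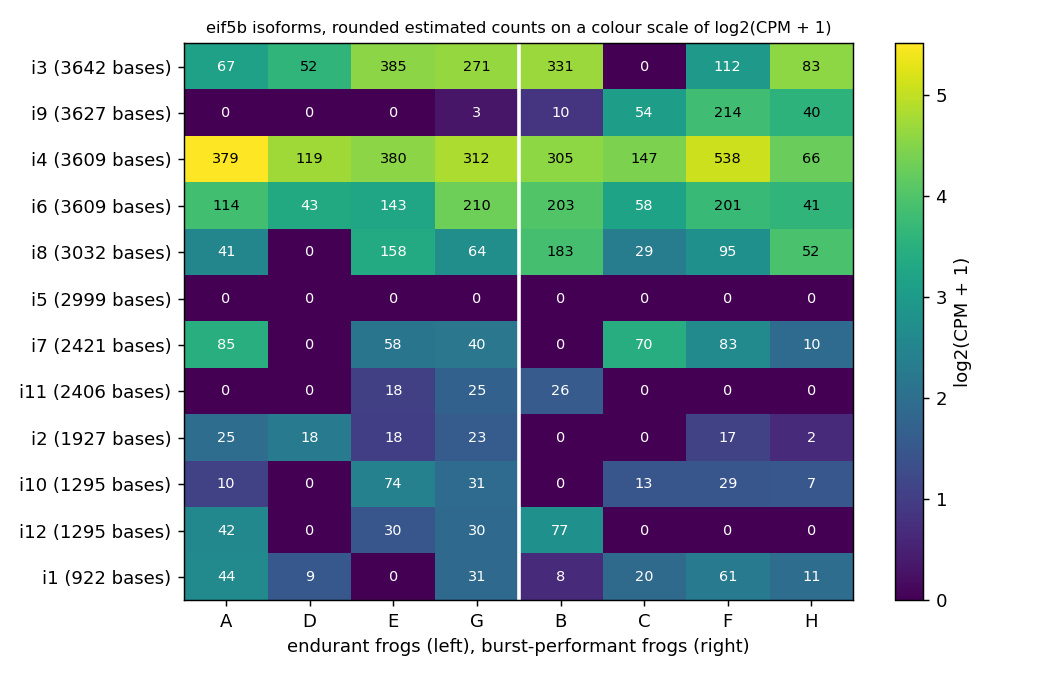
Rounded estimated counts of the 12 *eif5b* isoforms (rows, longest at the top) in every frog (columns, endurant left of the white line, burst-performant right of it), with the colour giving log2(CPM + 1). Isoforms i4 and i6 have counts in all 8 frogs, i9 has 0, 0, 0 and 3 counts on the left and 10, 54, 214 and 40 on the right, and i2 has 25, 18, 18 and 23 on the left and 0, 0, 17 and 2 on the right.

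Isoform i2 of *eif5b* (TR21443|c2_g2_i2, 1927 bases), named after its values were seen, leaned the other way. It had 25, 18, 18 and 23 counts in endurant A, D, E and G, against 0, 0, 17 and 2 counts in burst-performant B, C, F and H. It averaged 2.44 ± 1.166 CPM in endurant frogs, against 0.414 ± 0.520 CPM in burst-performant frogs (SD, n = 4), and the groups overlapped because of frog F. Its log2 fold change was 2.56 (standard error 1.18, unadjusted p = 0.0587 and adjusted p = 1 by the edgeR quasi-likelihood fit, Benjamini-Hochberg adjusted, exact permutation test p = 0.0571), which did not pass.

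The *rps6ka4* gene rested on few reads, and its 2 isoforms differ in length by 16 bases. Isoform i1 (TR40196|c1_g1_i1, 2441 bases) had 7, 7, 11 and 32 counts in endurant A, D, E and G, against 17, 0, 11 and 0 counts in burst-performant B, C, F and H. Isoform i2 (TR40196|c1_g1_i2, 2425 bases), on which the gene was chosen, had 0 counts in all 4 endurant frogs and 13, 7, 34 and 5 counts in the burst-performant frogs. Endurant frogs thus had i1 only, frogs C and H had i2 only, and frogs B and F had both.

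By pooled counts, 59 against 0, i2 was 19.3-fold higher in burst-performant frogs than a floor of 3 counts over the endurant group. The fold was 10.8 without frog E and 12.1 without frog F. It allows for neither counting error in the burst-performant frogs nor the spread between frogs, so it is not a lower bound. Isoform i2 made up 44.9% of the counts of the gene in frog B (exact 95% interval 25.5 to 62.6) and 76.3% in frog F (60.5 to 87.1). The 7 counts of frog C and the 5 of frog H were all i2, with intervals that begin at 59.0 and 47.82%. In the endurant group, the 0 of 7 counts in frogs A and D allow a share of i2 of up to 42.9%, the 0 of 11 in frog E up to 27.3% and the 0 of 32 in frog G up to 9.38%. Shares of i2 below those limits are not excluded by these counts.

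The total of *rps6ka4* did not separate the groups. It was 0.824, 1.497, 0.657 and 2.84 CPM in endurant A, D, E and G, against 2.25, 0.975, 2.78 and 1.37 CPM in burst-performant B, C, F and H. The highest values, of frogs G and F, came 1 from each group. The log2 fold change was -0.37 (standard error 0.56, adjusted p = 1 by the edgeR quasi-likelihood fit, Benjamini-Hochberg adjusted, with exact permutation test, p = 0.486). Without frog G it was -0.98, with an adjusted p of 1 in the same test. Isoform i1 averaged 1.45 ± 0.991 CPM in endurant frogs, against 0.475 ± 0.598 CPM in burst-performant frogs (SD, n = 4), with a log2 fold change of 1.42 (standard error 1.098, unadjusted p = 0.231 by the edgeR quasi-likelihood fit; exact permutation test, p = 0.143).

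**Figure D4:**
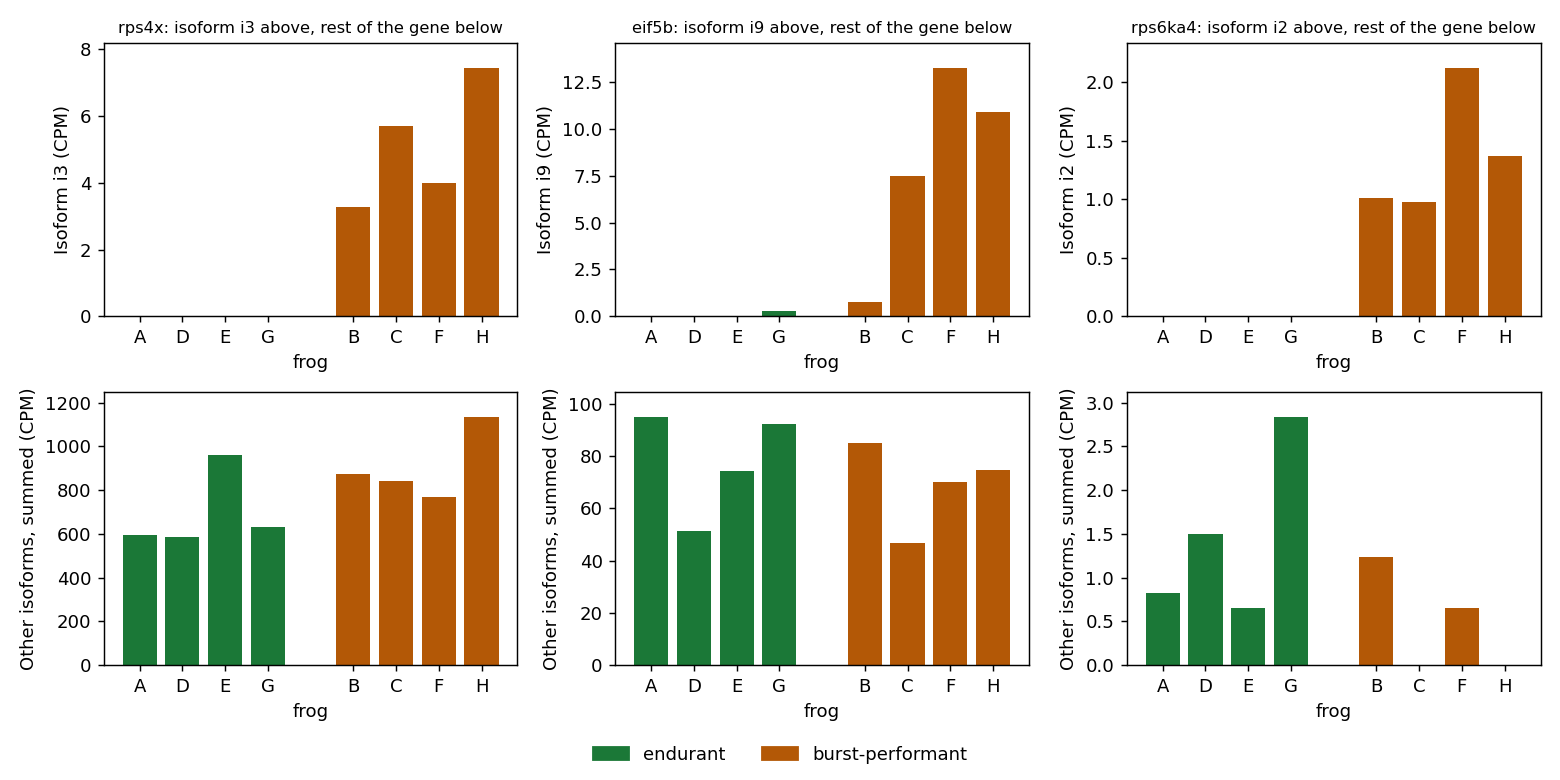
CPM of the isoform on which each gene was chosen (upper row) and of all other isoforms of the gene summed (lower row) in every frog, with endurant frogs on the left of each panel. In the upper row the endurant frogs are at 0 apart from 0.266 CPM of *eif5b* i9 in frog G. In the lower row the groups overlap for *rps4x* and *eif5b*, and for *rps6ka4*, where burst-performant frogs C and H are at 0 and frog B exceeds endurant frogs A and E.

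Over all 19 isoforms, 18 passed the filter of a CPM above 1 in at least 2 frogs. The 3 isoforms on which the genes were chosen passed it through burst-performant frogs alone. With a CPM above 1 asked of 4 frogs, 14 isoforms were tested, and *eif5b* i9 and *rps6ka4* i2 were not among them. In the quasi-likelihood test (edgeR, Benjamini-Hochberg adjustment), 0 of these 18 were called, as were 0 of all 55631 transcripts tested (0.00%), while edgeR's exact test and DESeq2's Wald test each called 3, the isoforms on which the genes were chosen. In the exact test 0.0863% of all transcripts were called as higher in burst-performant frogs, and this test chose the members. DESeq2's test called 153 of all 55631 transcripts in either direction, on the same counts that chose the members. Nothing is therefore read from the count of members called in either test. In the exact test the chosen isoforms of *rps4x*, *eif5b* and *rps6ka4* had log2 fold changes of -8.68, -6.57 and -6.82. These values chose the isoforms and are no evidence of a difference. The nearest isoform outside the threshold was *eif5b* i2, whose log2 fold change of 2.56 did not pass the FDR. The 15 other isoforms tested had no unadjusted p under 0.05 in the quasi-likelihood test, against 3.66% of all transcripts, and the groups did not overlap in 0 of the 15, against 2.89%. By fitted sign, 8 of the 15 were higher in endurant and 7 in burst-performant frogs.

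The share that the chosen isoform held of its gene differed by 2 orders of magnitude between the genes. In burst-performant frogs it averaged 0.552 ± 0.138% for *rps4x*, 10.8 ± 6.74% for *eif5b* and 80.3 ± 26.1% for *rps6ka4* (SD, n = 4). Over the 97 transcripts that the exact test called in genes of 2 or more transcripts, the share in the higher group had a median of 26.4%. Of these 97, 1 held a smaller share of its gene than *rps4x* i3, 22 than *eif5b* i9 and 88 than *rps6ka4* i2.

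**Figure D5:**
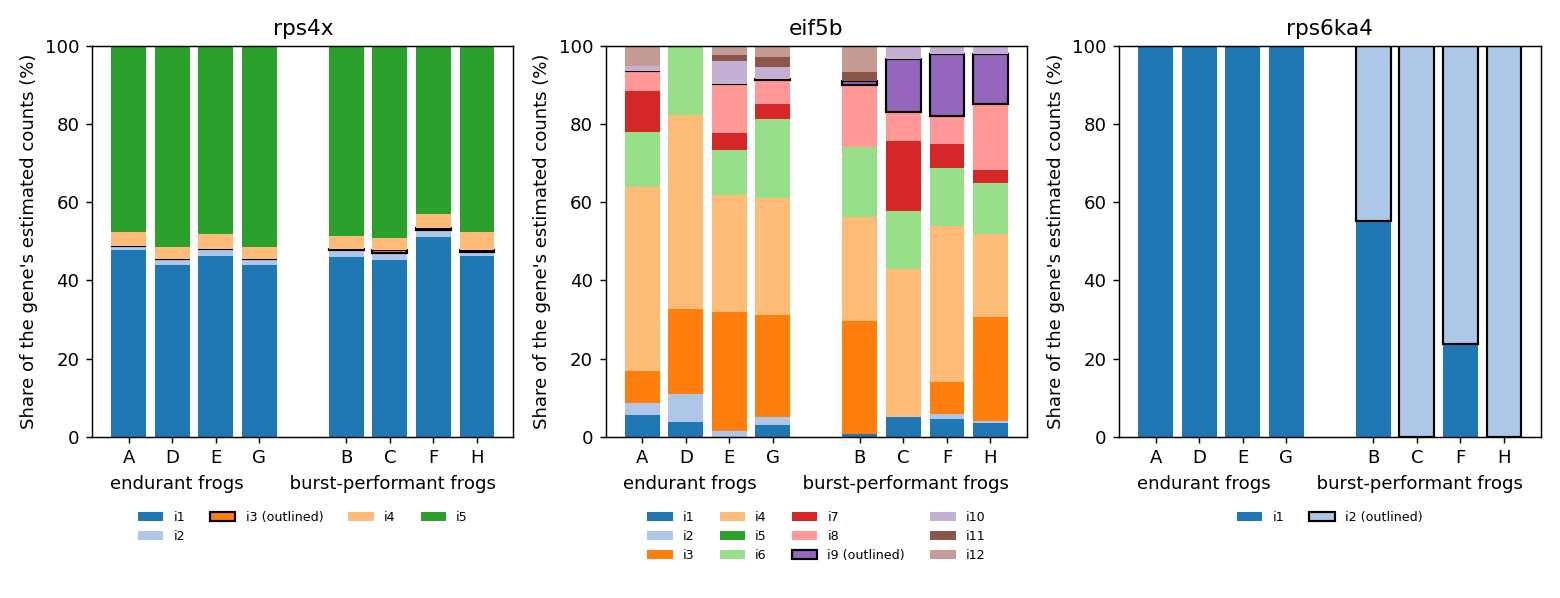
Make-up of each gene by isoform in every frog, as percent of the estimated counts of the gene, with endurant frogs left and burst-performant frogs right in each panel and the chosen isoform outlined in black. Isoforms i1 and i5 fill 93.9 to 95.4% of every *rps4x* bar, *eif5b* bars differ from frog to frog, and *rps6ka4* bars are i1 alone in the endurant frogs.

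The spread of the totals between frogs was set beside that of genes of like abundance. The SD of log2(CPM + 1) over the 8 frogs was 0.35 for *rps4x*, and 85.5% of the 152 Trinity genes within a factor of 2 of its CPM had a larger one. For *eif5b* the SD was 0.34, and 70.8% of 1314 such genes had a larger one. For *rps6ka4* it was 0.47, and 45.24% of 16412 did. Over the 8 frogs, which share library and depth across genes, Pearson's r of log2(CPM + 1) was 0.09 for *rps4x* and *eif5b*, -0.18 for *rps4x* and *rps6ka4* and 0.31 for *eif5b* and *rps6ka4*, given as a description.

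The gene totals were also set against the locomotor traits of the same frogs, taken from the individual measures of the study. Distance and time to exhaustion separate the groups completely and were therefore not correlated over all frogs, and 4 frogs are too few within a group. For maximum velocity and maximum acceleration, 6 relations were computed, and none passed (exact permutation tests over all pairings of 8 frogs, adjusted p of 0.945 or more with Benjamini-Hochberg adjustment over the 6). The *rps4x* total had a Pearson's r of 0.295 with velocity (permutation p = 0.462, Spearman's rho 0.347, permutation p = 0.397) and of -0.0186 with acceleration (p = 0.966, rho -0.0476, p = 0.935). The *eif5b* total had an r of 0.0512 with velocity (permutation p = 0.894, rho 0.00, p = 1) and of -0.225 with acceleration (p = 0.630, rho 0.214, p = 0.619). The *rps6ka4* total had an r of 0.521 with velocity (permutation p = 0.181, rho 0.407, p = 0.315) and of -0.290 with acceleration (p = 0.507, rho -0.0714, p = 0.882). That total includes i2, chosen for its difference between the groups, and with i2 removed the r with velocity was -0.246, so that no relation of *rps6ka4* to velocity is read from the total.

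These relations depended on single frogs. Without the 2 frogs farthest from the median velocity, D and C, the r of velocity was 0.0381 for *rps4x* and 0.0333 for *eif5b* (exact permutation tests over 6 frogs, p = 0.936 and p = 0.946). For *rps6ka4* it was 0.916, against 0.521 over all frogs, and both are given as a description since the total holds i2. The -0.246 with i2 removed is over all frogs and is not a like measure. Frog F is as far from the median as frog C, and without D and F the r of the *rps6ka4* total was 0.458. Frogs D and C are also those with a much smaller part of their listed read pairs counted. Leaving them out therefore changes velocity range and libraries at once, and the 2 cannot be told apart. Frogs C and F had the same and highest velocity, while their *rps6ka4* totals, 0.975 and 2.78 CPM, were the lowest and the highest of the burst-performant group. Without the 2 frogs farthest from the median acceleration, A and C, the r of acceleration was 0.255 for *rps4x*, 0.484 for *eif5b* and 0.634 for *rps6ka4* (exact permutation tests, p = 0.614, p = 0.367 and p = 0.181). Among the endurant frogs, frog E jumped the farthest and longest and had the highest *rps4x* total, 958.5 CPM. Frog G was the fastest of them and had the highest *rps6ka4* total, 2.84 CPM. These matches were picked after the values were seen. A group holds too few frogs to test them, and no relation is read from them. The highest *rps4x* total of all frogs, 1142 CPM, was that of burst-performant frog H, which had the shortest time to exhaustion.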

How the data were processed

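The authors trimmed paired-end reads with Trimmomatic, assembled them de novo with Trinity from all frogs together, and estimated abundance per frog with Kallisto. Their versions are not stated. Estimated counts as deposited are read pairs per transcript, not corrected for length or depth. The deposited TPM values were computed by the authors with Kallisto from those counts and effective lengths and carry no depth.

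Estimated counts were rounded, summed over Trinity genes and tested, over all transcripts or genes above 1 CPM in 2 or more frogs, with edgeR 4.0.16 in R 4.3.3 (TMM, glmQLFit, glmQLFTest), endurant minus burst-performant. Calls were made at FDR 0.05 where the log2 fold change was also 2 or more in size. Standard errors were derived from the fold change and the F statistic. Alternatives were edgeR's exact test, DESeq2 1.42.0, limma 3.58.1 on log2(TPM + 1) and log2(TPM + 0.1), other scalings and filters, and each frog left out. Exact permutation tests were 2-sided, and trait correlations used all 40320 pairings (Python 3.11.15, scipy 1.17.1). Share intervals are Clopper-Pearson, and a count of 0 is limited at 3 counts. The fits and permutation tests were tested on simulated data.

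Isoforms were named singly where they were called by the exact test, were highest in mean TPM or held at least 5% of the counts of their gene. Symbols were joined from the study's list where direction, log2 fold change and FDR of the exact test agreed at the printed digits, which held for 103 of 103 entries. Libraries of 1 group differed by a chi-square of 20.8 or more per degree of freedom. The members, lists and tests were chosen with earlier results of these data known. The labels do not say that frogs of both groups were paired.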

Additional observations from a re-analysis of the deposited data

Results flagged for a closer look

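In 30 groups of 4 values of the gene totals, named isoforms and 2 combined measures, 5 had 1 frog set apart. Its gap to the nearest other was larger, relative to the range of the group, than Dixon's 95% critical value. For independent normal values chance gives about 1 in 20. The groups here share reads and some hold zeros, so the 5 cannot be set against that rate. Of the 5, 3 concern *rps4x*. In the endurant group, frog E had a total of 958.5 CPM against 586 to 633 CPM in frogs A, D and G, and an i1 level of 444 CPM against 258 to 284 CPM. In the burst-performant group, frog H had an i1 level of 528 CPM against 383 to 402.5 CPM in the other frogs. The *eif5b* total of burst-performant frog C was 54.35 CPM, against 83.3 to 85.8 CPM in frogs B, F and H. Of frogs B, C, F and H, only C had a much smaller part of its listed read pairs counted. The *eif5b* isoform i9 was at 0.266 CPM in endurant frog G and at 0 in the others, which is a difference of 3 counts.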

How the results depend on the processing

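No transcript passed in the quasi-likelihood test, and the number called was 109 in edgeR's exact test, 153 in DESeq2's Wald test, 13 without a filter, and 5 in limma with either pseudocount. For gene totals, 0 became 45, 31, 727, 2 and 2 under the same alternatives, and 0 to 1 when a frog was left out, the 1 without frog C. The cause was not tested. Of the 18 isoforms tested here, the exact test and DESeq2 called 3, and the fit without a filter and limma on log2(TPM + 0.1) called 1, *rps4x* i3. All these fits used the data that chose the isoforms, so nothing is read from their calls. The near-zero *eif5b* total turned to -0.0122 without a filter and ran from -0.12 to 0.16 with a frog left out, negative without A, G or C. The rest of *eif5b* without i9 differed by -0.00595 to 0.353 on the log2(CPM + 1) scale with a frog left out, and that of *rps4x* without i3 by -0.565 to -0.285. Its exact permutation p of 0.0286 without frog E was the only one under 0.05. Scaling by library size alone raised the median log2 fold change of all gene totals to 0.14, and on that scale *rps4x* was at -0.23. Of the trait correlations, r of *rps4x* with acceleration was -0.322 scaled by library size alone, -0.3125 on log2(TPM + 1), 0.0158 with DESeq2's size factors and -0.237 to 0.156 with a frog left out. With the chosen isoform removed, r with velocity was -0.167 for *eif5b* and -0.246 for *rps6ka4*. With a frog left out, r of *eif5b* ran from -0.448 to 0.479 with velocity and from -0.610 to 0.559 with acceleration. No trait correlation passed under any alternative run. No paired analysis was run because the labels state no pairing of the frogs. Depth limits *rps6ka4* most, at 5 to 45 read pairs per frog.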

Other observations

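The lengths of the *rps4x* isoforms fall into a regular pattern. Isoform i2 is 54 bases longer than i1, and i5 is 54 bases longer than i3, while i5 exceeds i1 by 7 bases. The *eif5b* isoforms show the like: i3 exceeds i9 by 15 bases and i7 exceeds i11 by 15 bases, i3 exceeds i4 and i6 by 33 bases and i8 exceeds i5 by 33 bases. Whether the same segments are involved was not tested, as the sequences were not used here.

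Trinity places in the same component as *rps4x* a further gene of 3 transcripts, TR43268|c3_g1, which has no symbol in the sources used here. It was at 275.5 ± 33.8 TPM in endurant and 263 ± 64.9 TPM in burst-performant frogs (SD, n = 4, exact permutation test on log2(CPM + 1), p = 0.771). The other neighbours of the 3 genes in their components had 0 to 66 counts over the 8 frogs, and none of the 8 neighbours passed with Benjamini-Hochberg adjustment over them (exact permutation tests, lowest adjusted p = 0.229, for TR43268|c5_g1 with 12 counts).

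The Trinity genes whose totals followed each gene most closely over the 8 frogs were, for *rps4x*, TR27018|c1_g1 and TR81941|c0_g1 (Pearson's r of 0.990 and 0.986, among 5982 genes of at least 10 CPM), for *eif5b*, TR15182|c0_g1 and TR24518|c4_g1 (0.967 and 0.961), and for *rps6ka4*, TR53265|c4_g3 and TR29946|c3_g3 (0.949 and 0.936, among 5983 genes). None has a symbol in the sources used here. An r of at least 0.9 was reached by 109 genes for *rps4x*, 14 for *eif5b* and 6 for *rps6ka4*. All points share library and depth, and the values are a description.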
